A study of Caenorhabditis elegans with 12 samples.

Results

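The str and srd genes encode chemoreceptors of the nematode *Caenorhabditis elegans*, and they were picked from the array by symbol, str- or srd- followed by a digit. Probe sets that carry a single gene name covered 234 such genes, 177 str and 57 srd, of 17118 named genes in all. A gene with several probe sets, str-16 and str-159 here, was represented by the brighter one. RNA came from whole embryos at the 3-fold stage, when the animal is folded in the eggshell shortly before hatching. The strains were the wild type N2 Bristol (strain JT5010, 4 arrays), daf-12(sa204) (JT204, 4 arrays) and daf-19(m86), daf-12(sa204) (JT6924). The last strain had 4 columns, of which numbers 1 and 2 held identical values, so it counted as 3 arrays and that column is called array 1-2. Both mutant strains carry daf-12(sa204), so the loss of daf-19 alone was read against the daf-12 mutant.

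Chemoreceptors of these families are G protein-coupled receptors that span the membrane several times, and each is usually made in very few sensory neurons. The receptor protein is carried to the cilium at the tip of the dendrite, where odours and pheromones are met. DAF-19 is the RFX transcription factor that switches on genes for building cilia, while DAF-12, a nuclear receptor for steroid hormones, acts in the dauer pathway. The same class of receptor includes ODR-10, the receptor for diacetyl, whose gene carries another symbol and was not among the 234. In whole embryos, fewer cells of a type and less RNA per cell cannot be told apart.

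Few str and srd genes rose above background. RMA gave log2 values with no detection call, so background was set from 27 probe sets for bacterial transcripts (dap, lys, phe, thr and trp) on replicates 1 and 2, where they stayed dark. The 95th percentile of those values was 5.39, and a gene was counted as above background in a genotype when every array of it was higher. The same line was used for replicates 3 and 4, where those probe sets were lit. There the median of the 234 genes was 4.21 to 4.58, against 4.51 to 4.87 on replicates 1 and 2. The rule was passed by 15 of 234 genes (6.41%) in wild type. It was passed by 16 (6.84%) in the daf-12 mutant and also by 16 (6.84%) when daf-19 was lost as well. Over all 17118 named genes the shares were 56.0%, 56.7% and 58.4%. The rule asks less of the 3 double mutant arrays than of 4, so these counts are not a like comparison of genotypes. Leaving out an array gave 15 to 21 genes in wild type. In wild type 26 genes passed on replicates 1 and 2 alone and 16 on replicates 3 and 4 alone. For the daf-12 mutant these counts were 41 and 17. Of the 234 genes, 148 were at or below 5.39 on each of the 11 arrays. The 23 major sperm protein genes, of a tissue that embryos lack, had array medians of 5.74 to 7.32, above this line. Above the 95th percentile of those 23 genes on replicates 1 and 2, 7.55, 0 of the 234 genes passed in any genotype. Whether transcripts of those 23 genes were absent from the samples was not tested. Passing 5.39 was therefore not taken to show that a gene was transcribed.

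Of the 20 genes that passed in at least 1 genotype, 11 (55%) passed in all 3, against 88.2% of the 10344 named genes that passed in at least 1. The mean over all arrays reached at most 6.82 among the str and srd genes, and 14.6 among all tested probe sets. How far nearness to the 5.39 line lowered the share of 55% was not tested. That share therefore does not show larger differences between genotypes. The 11 genes that passed in all 3 were str-7, str-31, str-148, str-173, str-185, str-260, srd-23, srd-29, srd-32, srd-49 and srd-51. The other nine differed between genotypes in whether the lowest array cleared 5.39. In wild type alone it was str-86; in wild type and the daf-12 mutant, srd-33 and str-168; and in wild type and the double mutant, str-131. The gene str-166 passed in the daf-12 mutant alone, str-84 and str-112 in both mutants, and str-247 and srd-67 in the double mutant alone. The gene nearest above the line in wild type was str-7, with a lowest array of 5.43, and the nearest below was str-166, with 5.34. By family, 9 of 177 str genes (5.08%) and 6 of 57 srd genes (10.5%) passed in wild type.

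**Figure D1:**
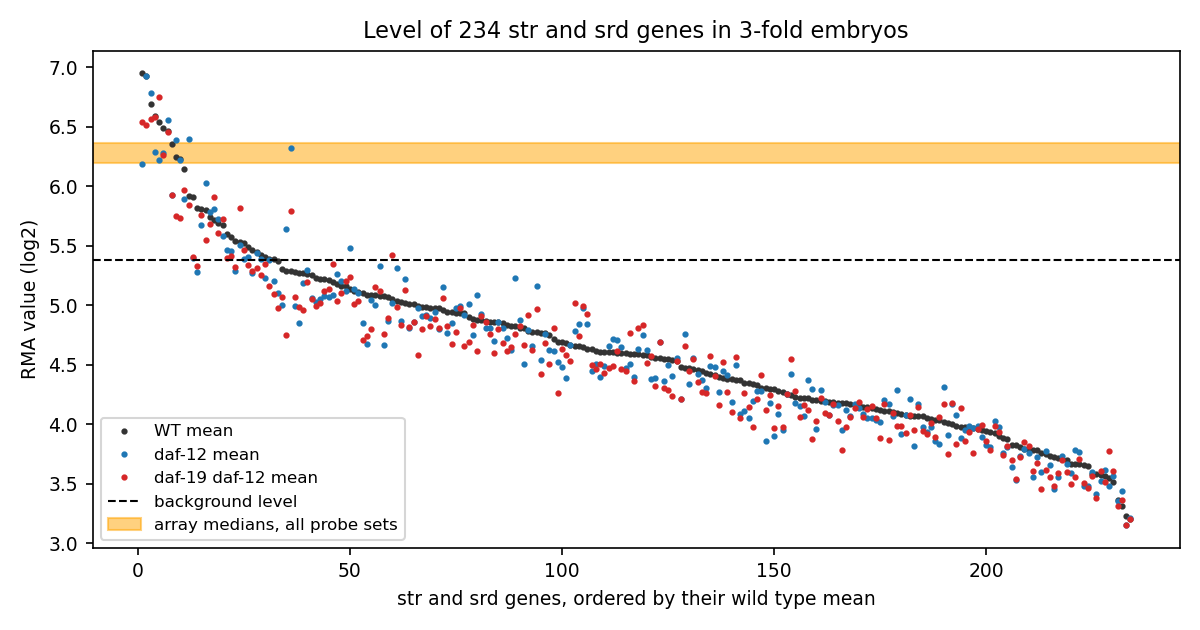
Mean RMA value (log2, vertical axis) of each of the 234 str and srd genes in the 3 genotypes, ordered along the horizontal axis by the wild type mean. The dashed line is the background level of 5.39 and the band spans the array medians of all probe sets, 6.20 to 6.36; most of the points lie below the line, and few reach the band.

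The genes lay low on the array as a whole. Their mean over the 11 arrays ran from 3.18 to 6.82 with a median of 4.53, against a median of 6.29 over the 22548 tested probe sets. The median was 4.47 for str and 4.69 for srd genes. Only 7 of the 234 exceeded the median of all tested probe sets, and 227 were below it. Probe sets differ in how strongly they bind, so the order of genes by value is not an order of transcript amounts.

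Among the brightest was str-185, at 7.31, 6.82, 6.99 and 6.58 on the 4 wild type arrays. The daf-12 arrays gave 7.58, 7.37, 6.41 and 6.35, and the double mutant arrays 7.15, 6.22 and 6.19. In both mutants the arrays of replicates 1 and 2 were the high ones, and all genotypes overlapped. The gene str-148 read 6.66, 6.53, 6.30 and 7.27 in wild type, 6.22, 6.59, 6.998 and 7.34 in daf-12 embryos and 6.80, 6.48 and 6.41 in the double mutant. Here arrays 3 and 4 were the high ones in the daf-12 mutant, so the shift between replicates ran the other way, and the groups overlapped again. No ligand or cell is given here for either gene.

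The srd genes that passed had similar values. The gene srd-51 had means of 6.59 ± 0.14 (SD, n = 4) in wild type, 6.29 ± 0.17 (n = 4) in daf-12 embryos and 6.58 ± 0.31 (n = 3) in the double mutant. The means of srd-32 were 6.49 ± 0.22, 6.28 ± 0.18 and 6.26 ± 0.47 in the same order. Those of srd-29 were 6.47 ± 0.40, 6.56 ± 0.69 and 6.46 ± 0.40. In each of these 3 genes the genotype means differed by no more than the largest SD among them. The means of srd-23 were 6.15 ± 0.18, 5.90 ± 0.28 and 5.97 ± 0.05. The gene srd-49 had 6.23 ± 0.37, 6.22 ± 0.24 and 5.74 ± 0.57, and 2 of its double mutant arrays, at 5.40 and 5.42, lay just above the background line. In the RefSeq annotation srd-49 overlaps ugt-47, a glucuronosyltransferase gene, srd-33 overlaps T19H12.6 and srd-65 overlaps fbxa-12. Such overlap held for 2 of the 20 genes above background in at least 1 genotype and for 21 of the other 214. Whether transcripts of the overlapping gene reached the probes was not tested.

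Other str genes bright in wild type were str-31 at 6.54 ± 0.20, str-260 at 6.35 ± 0.53, str-166 at 6.25 ± 0.68 and str-84 at 5.92 ± 0.86 (SD, n = 4). The last gene ranged from 4.94 to 6.92 on the wild type arrays, so a single genotype spanned the background line. The wild type means were 5.91 ± 0.57 for str-86, 5.82 ± 0.42 for srd-65 and 5.81 ± 0.24 for str-131. The gene srd-65 failed the background rule in every genotype, since its wild type array 2 read 5.32.

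**Figure D2:**
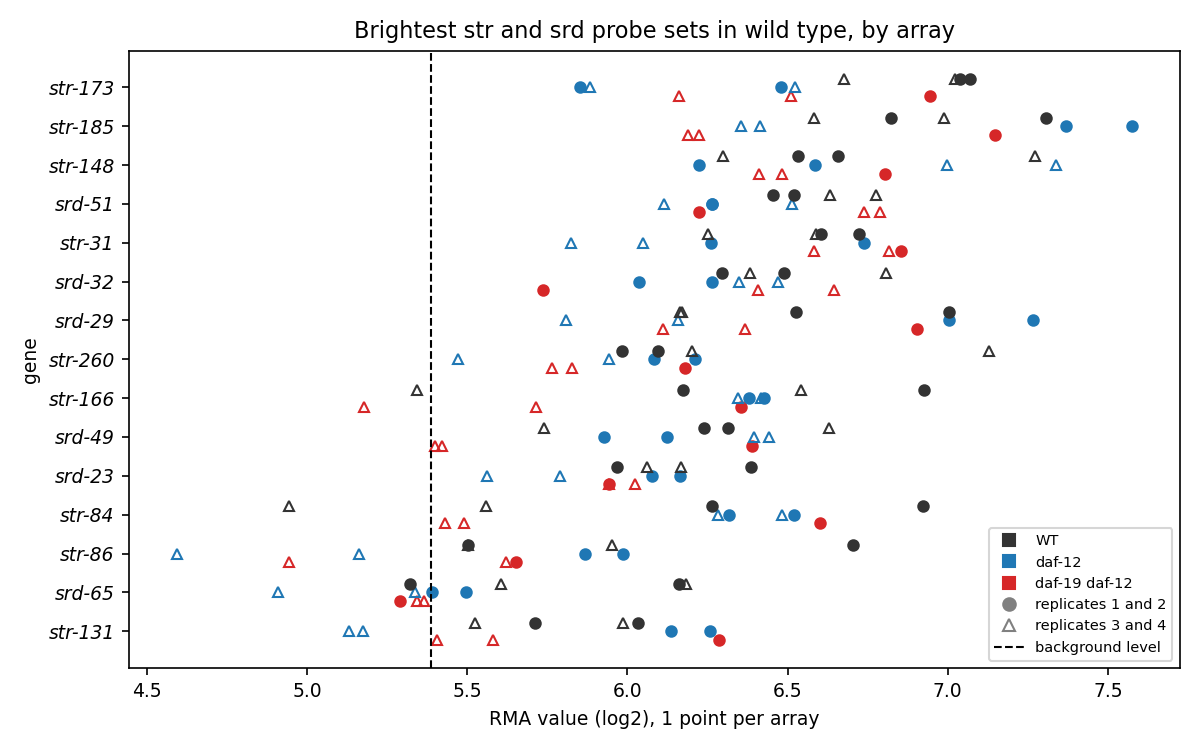
RMA value (log2, horizontal axis) on each array for the 15 str and srd genes with the highest wild type means, with wild type in black, the daf-12 mutant in blue and the double mutant in red; filled circles are replicates 1 and 2 and open triangles replicates 3 and 4. The genotypes overlap in each gene except str-173, where the daf-12 arrays (5.85 to 6.52) lie below the wild type arrays (6.68 to 7.07).

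The 6 genes listed for a known neuron or ligand failed the background rule in every genotype. The gene str-2, a marker of a single AWC olfactory neuron of the pair, read 5.36, 4.81, 4.66 and 3.85 on the wild type arrays. It read 5.18, 5.05, 4.26 and 4.18 in daf-12 embryos and 5.07, 4.28 and 4.25 in the double mutant, so no array passed 5.39. The wild type mean was 3.75 ± 0.30 (SD, n = 4) for str-1, a marker of the AWB neurons, and 3.32 ± 0.11 for str-3, a marker of the ASI neurons. It was 4.28 ± 0.29 for str-44, a receptor of the AWA neurons. The gene str-217, needed for the response to the repellent DEET, had 4.81 ± 0.34. For srd-1, a receptor of male AWA neurons for a volatile sex pheromone, it was 4.98 ± 0.51. Array 1 of wild type, at 5.58, was the only one of the 11 arrays on which srd-1 passed the line. None of these 6 genes passed limma's test in any comparison. On loss of daf-19 in the daf-12 background, their log2 changes ran from -0.16 in str-1 to 0.16 in str-217, with SEs of 0.15 to 0.37. Against wild type the double mutant differed by -0.14 in str-2, with a 95% interval from -0.95 to 0.68.

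The median level of the 234 genes differed more between replicate numbers than between genotypes. The median of the 234 genes was 4.51 to 4.87 on the 5 arrays of replicates 1 and 2 and 4.21 to 4.58 on the 6 arrays of replicates 3 and 4. Within a genotype, 177 of 234 genes were higher on replicates 1 and 2 than on replicates 3 and 4 in wild type (75.6%), 210 in the daf-12 mutant (89.7%) and 211 in the double mutant (90.2%). Over all tested probe sets these shares were 50.6%, 55.0% and 52.3%. The median difference was 0.20, 0.42 and 0.39 for the receptors, against 0.01, 0.07 and 0.03 for all probe sets. The number of genes above 5.39 on an array was 27 to 64 in the first set and 18 to 33 in the second.

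The first quartile of all probe sets was 4.68 to 4.86 on replicates 1 and 2 and 4.55 to 4.77 on replicates 3 and 4. The 8 control probe sets that stayed low on all arrays (5 for yeast, 3 for trp) shifted in the daf-12 mutant alone, with means of 4.29 and 4.23 on arrays 1 and 2 and 3.93 and 3.98 on arrays 3 and 4. In wild type they averaged 4.28, 4.04, 4.22 and 4.12 on arrays 1 to 4, and in the double mutant 4.14, 4.17 and 4.08, with overlap between the sets. The labels name no batch, and the part of the array set in the receptor values was not tested. The poly-A control probe sets averaged 4.08 to 4.24 on replicates 1 and 2 and 6.76 to 9.49 on replicates 3 and 4. Only 1 of 3 double mutant arrays was from the first set, against 2 of 4 in the other genotypes, so within-set values are given beside the comparisons.

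**Figure D3:**
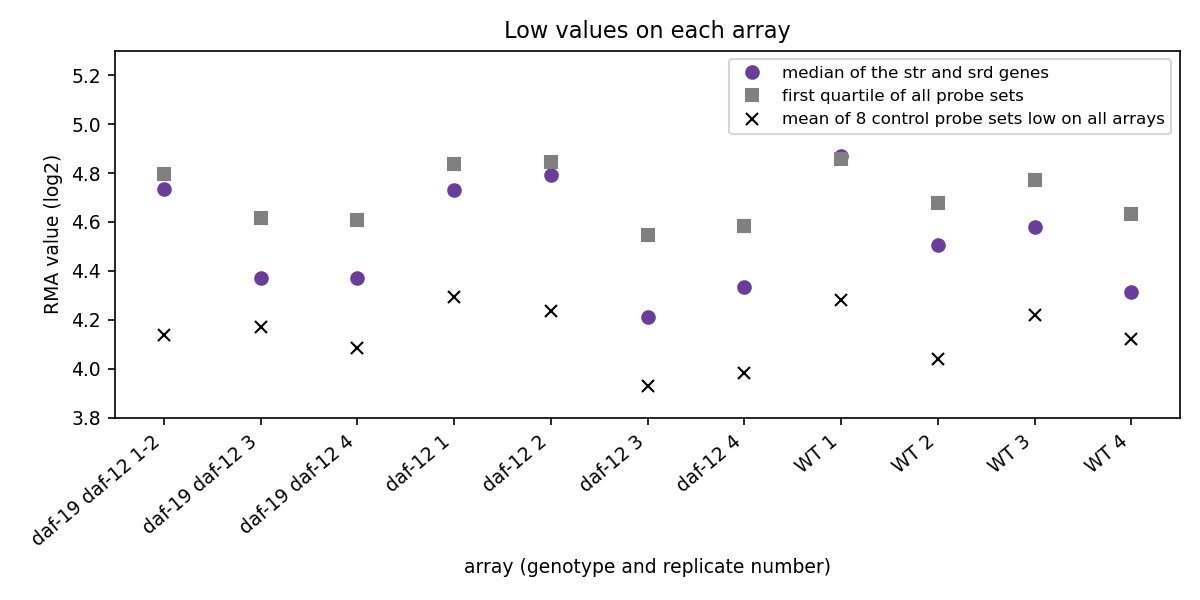
RMA value (log2, vertical axis) on each of the 11 arrays: circles are the median of the 234 str and srd genes, squares the first quartile of all probe sets, and crosses the mean of 8 control probe sets that were low on all arrays. The receptor median is highest on array 1 of wild type (4.87) and lowest on array 3 of the daf-12 mutant (4.21).

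No str or srd gene was called when daf-19 was lost in the daf-12 background. The comparison asks whether receptor transcripts depend on the factor that builds the cilium in which receptors act. limma called 0 of 234 genes in either direction at an adjusted p under 0.05, where 0.0577% of all probe sets were called lower and 0% higher. At an unadjusted p under 0.05 it had 3 lower and 1 higher, or 1.71% of the genes. Over all probe sets these shares were 2.39% lower and 2.53% higher, 4.92% together. The median log2 change of the genes was -0.03, with a range of -0.89 to 0.53, against a median of -0.01 over all probe sets. The median was -0.01 on the first set of arrays alone and 0.08 on the second. The first of these rests on a lone double mutant array, assumed to vary like the other groups.

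The lowest change was in str-144. It read 5.05, 4.57 and 4.64 in the double mutant and 5.26, 5.13, 6.004 and 6.18 in the daf-12 mutant, so the groups did not overlap. Wild type gave 4.28, 5.66, 5.07 and 6.14, which spans both. The log2 change against the daf-12 mutant was -0.89 ± 0.40 (SE, limma adjusted p = 0.9998, unadjusted p = 0.0491). It was -0.14 within replicates 1 and 2. Within replicates 3 and 4 alone it was -1.49 and was called (adjusted p = 0.0397), in a fit that called 4.66% of all probe sets lower and 3.73% higher.

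The 4 arrays on which str-144 passed 5.39 also had the highest medians of 10 pan-neuronal genes. These were arrays 3 and 4 of the daf-12 mutant (9.22 and 9.69) and arrays 2 and 4 of wild type (9.22 each), against 8.43 to 8.96 on the other seven. All of those 10 genes but rgef-1 were above background in wild type, and wild type means ran from 3.79 in rgef-1 to 11.4. The part of this difference in the str-144 values was not tested.

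**Figure D4:**
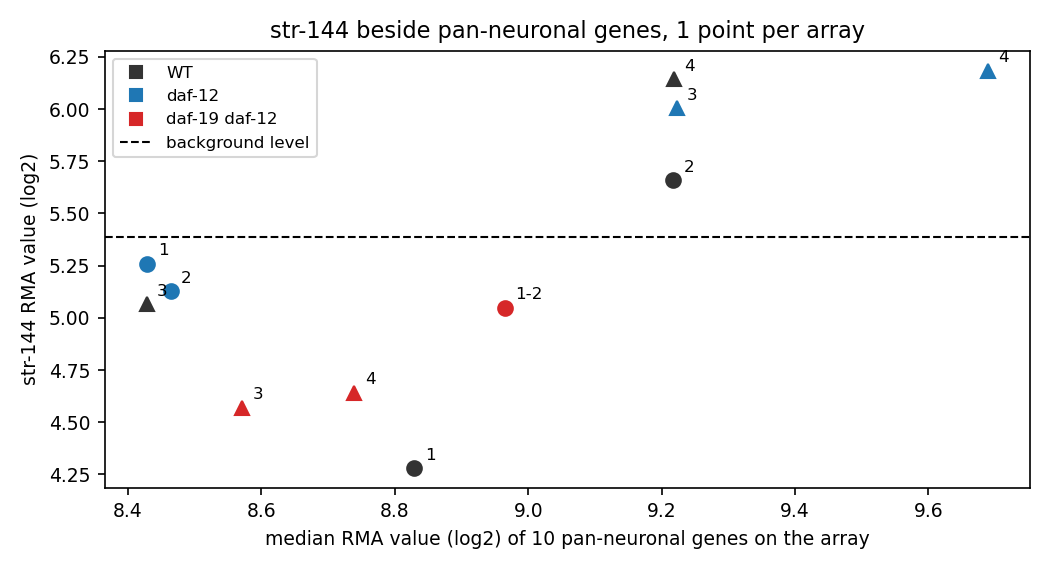
RMA value (log2) of str-144 on each array (vertical axis) against the median of 10 pan-neuronal genes on the same array (horizontal axis), with the replicate number beside each point and the background level of 5.39 as a dashed line. The 4 points above the line are daf-12 arrays 3 and 4 and wild type arrays 2 and 4, and the 3 double mutant arrays lie between 4.57 and 5.05.

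In 6 of 234 genes (2.56%) every array of the double mutant was lower than any from the daf-12 strain, against 2.97% of probe sets in general, and in 1 (0.427%) they were higher, against 2.29%. Beside str-144, the lowest log2 changes among the former were in srd-33, str-135 and str-57. The gene srd-33 read 5.88, 5.14 and 5.63 in the double mutant against 5.88, 6.33, 5.99 and 5.92, a log2 change of -0.48 ± 0.23 (SE, limma adjusted p = 0.9998). Array 1-2 of the double mutant and array 1 of the daf-12 mutant nearly met. The gene str-135 differed by -0.46 ± 0.19 (adjusted p = 0.952) and str-57 by -0.42 ± 0.17 (adjusted p = 0.952), and neither passed the background rule in any genotype. The only gene above was str-200, at 3.74, 3.85 and 3.74 against 3.57, 3.60, 3.26 and 3.51, which is also at background. The unadjusted test further had str-31 higher, by 0.53 ± 0.22 (adjusted p = 0.954), with overlapping arrays.

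Against wild type, the double mutant had 0 of 234 genes called by limma in either direction, where 0.102% of all probe sets were called lower and 0.0133% higher. At an unadjusted p under 0.05 there was 1 gene lower, str-113 (-0.39 ± 0.18, SE, limma adjusted p = 0.9998), and 0 higher, or 0.427% of the genes. Over all probe sets 2.08% were lower and 1.93% higher, 4.01% together. The median log2 change was -0.11 against -0.03 for all probe sets, with 175 genes below 0 and 59 above. The first set of arrays alone gave 0.03, the second -0.12, and a fit with a block for the set -0.05. Groups did not overlap in 1 gene on the lower side (0.427%, against 2.66% of all probe sets) and 2 on the higher side (0.855%, against 1.53%). The former was str-57, at 3.93, 3.81 and 3.89 against 4.46, 4.11, 4.12 and 4.13. The latter were str-164, at 4.87, 5.12 and 5.08 against 4.68, 4.63, 4.79 and 4.55, and str-200, which differed by 0.23 ± 0.14. All of these values lie below the background line. The genes str-57 and str-200 appear in both comparisons of the double mutant, which share its arrays.

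The daf-12 mutant also had 0 of 234 genes called by limma against wild type, where 0.0133% of all probe sets were called higher and 0% lower. At an unadjusted p under 0.05 it had 2 higher and 2 lower, or 1.71% of the genes. Over all probe sets 1.93% were higher and 1.09% lower, 3.02% together. The median log2 change was -0.07 against -0.03 for all probe sets. The first set of arrays alone gave 0.04 and the second -0.19, so the sign turned between them. It turned likewise in 1041 genes of other chemoreceptor families, at 0.05 and -0.20.

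Of these 4 genes, str-173 was the only one above background in all genotypes. It read 7.04, 7.07, 6.68 and 7.02 in wild type and 5.85, 6.48, 6.52 and 5.88 in the daf-12 mutant, with the double mutant at 6.94, 6.51 and 6.16. Wild type lay above the daf-12 mutant with no overlap, as in 1 of 234 genes (0.427%) and 0.723% of all probe sets on that side, while the double mutant overlapped both. The log2 change in the daf-12 mutant was -0.77 ± 0.22 (SE, limma adjusted p = 0.9998, unadjusted p = 0.00519). It was -0.89 on the first set of arrays and -0.64 on the second. No gene had all its daf-12 arrays above wild type, as 0.878% of all probe sets had.

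The largest change of all was in str-112. It read 6.38, 6.89, 6.64 and 5.39 in the daf-12 mutant, 6.17, 5.54 and 5.66 in the double mutant and 5.01, 4.95, 5.98 and 5.20 in wild type. Both mutants were above background on every array, and wild type on array 3 alone. The daf-12 mutant differed from wild type by 1.04 ± 0.33 (limma adjusted p = 0.9998, unadjusted p = 0.00891), with overlapping arrays, and by 1.65 and 0.43 within the earlier and later pair of replicates. For the double mutant the change from wild type was 0.51 ± 0.36. The unadjusted test also had srd-65 lower, by -0.54 ± 0.22, and str-135 higher, by 0.40 ± 0.17.

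**Figure D5:**
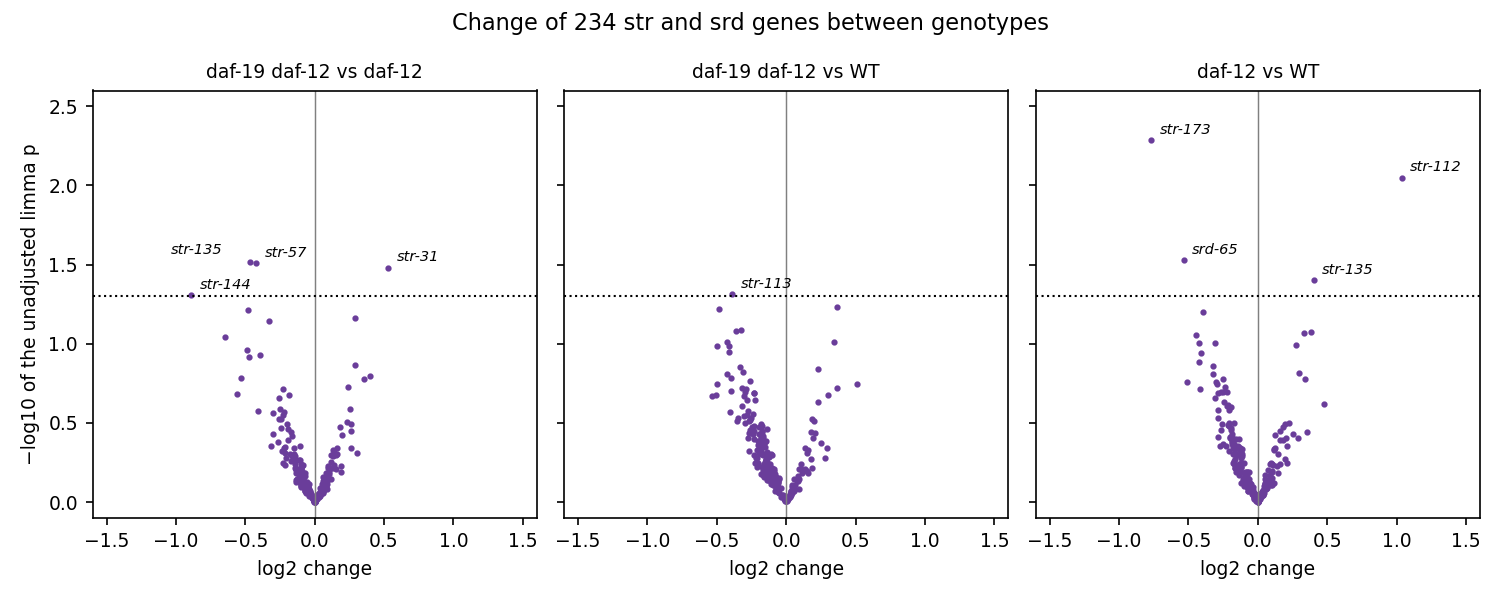
The log2 change (horizontal axis) and −log10 of the unadjusted limma p (vertical axis) of the 234 str and srd genes in the 3 comparisons, with a dotted line at an unadjusted p of 0.05 and the genes past it named. Between 1 and 4 genes pass the line in a panel, and 0 pass after adjustment.

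The arrays left room for small changes in a single gene. The 95% interval of a log2 change had a median half-width of 0.51 in either comparison of the double mutant and 0.47 in the remaining one. It lay wholly within a log2 change of 1 in either direction for 218 of 234 genes on loss of daf-19 in the daf-12 background, 216 when the double mutant was set against wild type, and 225 for daf-12 loss alone. Near background a value moves less than the transcript, so these intervals bound the array value and not the transcript.

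A further 25 probe sets carry the name of a str or srd gene together with another gene, and name 26 str or srd genes with no probe set of their own. They were not among the 234 and were picked here after their values were seen. Of the 25, 2 passed the background rule in wild type, one shared by str-154 and str-267 and the other by srd-71 and srd-72, and 5 in at least 1 genotype. Another probe set of srd-71 and srd-72 failed the rule in wild type and passed it in both mutants. The probe set of srd-61 and srd-75 read 5.91, 5.81, 6.50 and 6.71 in the daf-12 mutant, 5.18, 4.99, 4.80 and 4.71 in wild type and 5.45, 5.27 and 5.16 in the double mutant. The daf-12 mutant thus lay above both other groups with no overlap. Its log2 change from wild type was 1.31 ± 0.22 (SE, limma adjusted p = 0.315), and that of the double mutant from the daf-12 mutant was -0.94 ± 0.23 (adjusted p = 0.463). The probe set of str-154 and str-267 read 7.42, 7.65, 6.88 and 7.29 in the daf-12 mutant and 6.36, 6.73, 5.97 and 5.59 in wild type, again without overlap (1.14 ± 0.34, adjusted p = 0.9998). The double mutant, at 7.48, 6.05 and 6.05, overlapped both. Over all probe sets, 0.878% had the daf-12 mutant above wild type without overlap, and 2.97% had the double mutant below the daf-12 mutant. The former also held for srd-62 with srd-76, at background. The latter held for srd-60 with srd-73, at 5.28 to 5.72 against 6.01 to 6.51 (-0.89 ± 0.27, SE, limma adjusted p = 0.682). For str-25 with F22B8.3 the double mutant lay below wild type, at background, as in 2.66% of all probe sets. limma called 0 of the 25 in any comparison.

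By position, 166 of the 234 genes lie on chromosome V, 33 on IV, 19 on X, 7 each on II and III and 2 on I in the RefSeq annotation of WBcel235, used for names and neighbours alone. Of the 20 genes above background in at least 1 genotype, 12 lie on V and 5 on IV. Another str or srd gene is the next gene for 8 of those 20 and for 106 of the other 214. Neighbours srd-32 and srd-33 both passed in wild type, but str-84, next to str-86, did not. RefSeq lists 4 of the 234 as pseudogenes, none of them above background: str-122, str-183, str-223 and str-224.

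Other chemoreceptor families were read in the same way. Of 1041 genes in 20 further families, 62 (5.96%) were above background in wild type, 45 (4.32%) in daf-12 embryos and 67 (6.44%) in the double mutant, and limma called 0 of them for the loss of daf-19 in the daf-12 background. Their median level was 4.40, and their median log2 change on loss of daf-19 in the daf-12 background was -0.04. Against wild type it was -0.12 in the double mutant and -0.07 in the daf-12 mutant, beside -0.11 and -0.07 for str and srd. Families of 10 or more genes ranged from 0% above background in wild type to 15% in sri, which belongs to the Str superfamily with str and srd. In srh, of the same superfamily, 14 of 232 genes (6.03%) passed.

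Partners of these receptors were looked at from a list. Of 28 listed genes for receptor transport, signalling and the fate of the AWA, AWB and AWC neurons, 25 were measured and 13 (52%) passed the background rule in wild type, against 56.0% of all named genes. The genes odr-4 and odr-8, whose products move receptors such as ODR-10 to the cilium, had wild type means of 9.70 ± 0.25 and 8.17 ± 0.29 (SD, n = 4). The homeobox genes ceh-36, of AWC fate, and lim-4, of AWB fate, had 7.21 ± 0.33 and 7.62 ± 0.21. Also listed for fate, ceh-37 had 9.34 ± 0.35, whereas odr-7, of AWA fate, had 5.74 ± 0.29 and failed the rule in every genotype. Of the signalling genes downstream of receptors, the TRPV channel gene ocr-2 (6.27 ± 0.32) and the guanylyl cyclase gene daf-11 (6.21 ± 0.32) passed the rule in wild type. The G protein gene odr-3 (6.39 ± 0.78), the cyclase gene odr-1 (5.45 ± 0.23) and the channel subunits tax-4 (5.39 ± 0.18) and tax-2 (3.98 ± 0.36) did not. Nor did the TRPV channel gene osm-9 (5.26 ± 0.11) and the G protein genes gpa-2, gpa-3, gpa-5 and gpa-13 (means of 4.02 to 5.67). The receptor gene odr-10 had 5.37 ± 0.23 in wild type, 5.47 ± 0.30 in daf-12 embryos and 5.47 ± 0.04 in the double mutant. It passed the background rule in the double mutant alone. limma called 0 of the 25 in any comparison. At an unadjusted p under 0.05 the double mutant had 2 higher than the daf-12 mutant and 1 higher than wild type. Over all probe sets 2.53% and 1.93% were higher in these comparisons. Against the daf-12 mutant the 2 genes were tax-4, by 0.74 ± 0.19 (SE, limma adjusted p = 0.533), and nsy-4, by 0.84 ± 0.32 (adjusted p = 0.939). The latter codes for a claudin-like protein of AWC asymmetry, and its arrays overlapped between the 2 groups.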

How the data were processed

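Total RNA of whole 3-fold embryos was labelled with biotin and hybridised to Affymetrix arrays by the standard protocol, per the labels. The authors deposited log2 values per probe set, and the submitters' processing notes name RMA with no version; the genome build is not given in the sources used here. Values ran from 2.78 to 14.71, with precision limited by how many arrays there are. All 12 columns were mapped by title, 0 were left unmapped, and identical columns counted once, which left 11 arrays. The labels do not state whether replicates were grown apart, and p-values therefore reflect only the spread between these samples, which may be technical.

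Without 77 control probe sets, 22548 were tested; 20766 had 1 gene name in GEO's platform annotation, 887 several and 895 none. All 234 genes were matched in RefSeq. limma 3.58.1 (lmFit, eBayes; R 4.3.3) fitted the genotype means over all 11 arrays without a block, two-sided, with Benjamini-Hochberg adjustment over all tested probe sets and calls at 0.05. The fit was tested on simulated data drawn independently for each array. Those data lacked the correlation between arrays given below, which the test therefore does not cover. The genes, lists, background rule and tests were chosen with earlier results of these data known. Named genes were the 15 with the highest wild type mean, any called, up to 4 a direction with the largest changes and no overlap, 6 with known roles, and those next to the background line; genes past an unadjusted p of 0.05, the shared probe sets, and str-112 were chosen after their values were seen. Alternatives were a replicate block, a block for the sets of arrays, each set alone, each array left out, all 12 columns, other scalings, a filter, an intensity trend and other background levels.

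Deviations from group means correlated between arrays of the same replicate number at 0.22 to 0.29 for the double and the daf-12 mutant, 0.33 to 0.49 for the double mutant and wild type, and -0.03 to 0.67 for the daf-12 mutant and wild type. The pairing rule of 0.1 in each pair was met in the first 2 comparisons, though each replicate number falls in only 1 set of arrays. Differently numbered arrays within replicates 3 and 4 also correlated in these comparisons, at 0.13 to 0.34. The main fit nevertheless had no block. With a block for the set, 48 probe sets were called on loss of daf-19 in the daf-12 background, against 13 without. None was a str or srd gene. An unadjusted p under 0.05 was then reached by 8.71% of all probe sets, against 4.92%. Sequences were not used here.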

Additional observations from a re-analysis of the deposited data

Results flagged for a closer look

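In str-173 the value of wild type array 3, 6.68, stood apart from the other wild type arrays, which read 7.02 to 7.07. In str-57 the value of wild type array 1, 4.46, stood apart from the others, which read 4.11 to 4.13. Of 468 groups of 4 arrays over the 234 genes, 15 (3.21%) had such a value, where chance gives about 1 in 20.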

How the results depend on the processing

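The absence of calls among the 234 genes held in the fits with the replicate block, the set of arrays as a block, all 12 columns, median centring, quantile normalization, the filter and the intensity trend, within replicates 1 and 2, and in each of the 11 fits that left out an array. Within replicates 3 and 4, 1 gene, str-144, was called lower in the double than in the daf-12 mutant. With the replicate block the lowest adjusted p was 0.480, 0.629 and 0.975 in the 3 comparisons, and the medians were -0.01, -0.08 and -0.07. Leaving out an array moved the medians from -0.15 to 0.05, from -0.24 to -0.00 and from -0.15 to 0.04. Genes at an unadjusted p under 0.05 depended on array 1-2 of the double mutant: without it they numbered 11 (4.70%, from 4 and 1.71%) against the daf-12 mutant and 9 (3.85%, from 1 and 0.427%) against wild type, where 11.1% and 9.16% of all probe sets passed. Without array 3 of the double mutant they numbered 0 and 0 (1.92% and 1.94% of all probe sets), and without array 4, 1 and 0 (1.77% and 1.64%). Where daf-12 embryos were set against wild type, leaving out an array gave 2 to 6 (0.855% to 2.56%), against 1.58% to 5.41% of all probe sets. Within replicates 3 and 4 they numbered 17, 14 and 20 (7.26%, 5.98% and 8.55%), against 26.4%, 16.7% and 19.6% of all probe sets.

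The count above background depended on the rule. In wild type, the daf-12 mutant and the double mutant it was 32, 29 and 25 when the mean had to pass, and 6, 0 and 2 above the median of each array. It was 0, 0 and 0 above the 95th percentile of the 23 major sperm protein genes on replicates 1 and 2 (7.55). At the highest poly-A value (5.60) it was 10, 12 and 10. Alternatives chosen after seeing the data gave 19, 15 and 21 above the highest low control of each array, 16, 17 and 16 on replicates 3 and 4 alone, and 26, 41 and 52 on replicates 1 and 2 alone. The 52 rests on 1 array, where the rule that every array must pass asks least, so these 3 counts are not a comparison of genotypes. Leaving out an array gave 15 to 21, 15 to 17 and 14 to 19.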
